A study of Mus musculus with 14 samples.

Results

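Of the protein-coding genes that the study lists as giving rise to the most endo-siRNAs in mouse oocytes, 10 were followed here: *Sp110*, *Optn*, *Prc1*, *1110067D22Rik* (now *Lgalsl*), *Ncoa2*, *Ankrd28*, *Cwc22*, *Fbxo34*, *2610016C23Rik* (now *Mtfr2*) and *2410002F23Rik*. They were chosen by name, with earlier results of these data known, and are 10 of the 20337 genes with a symbol in the RNA-seq count files. The transcript with the highest mean count stood for each gene, and all 10 passed the filter on low counts in every comparison. Small RNAs were not measured in these libraries, so that a gene makes endo-siRNAs is background and not a result of these data.

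RNA-seq was performed on full-grown oocytes with an intact germinal vesicle (GV), which are arrested in prophase of meiosis I and have largely ceased transcription. The females were 4 to 6 weeks old and were primed with eCG, a gonadotropin that makes follicles grow, at 5 IU and 48 h ahead of collection, and all were of a mixed, mostly C57BL6 background. *Ago2* fl/fl oocytes (3 libraries) carry floxed *Ago2* alleles and served as control. *Ago2* ADH oocytes (3 libraries) come from *Ago2* fl/ADH; Cre/+ females, in which Cre driven by the oocyte-specific *Zp3* promoter removes the floxed allele and leaves 1 allele whose product binds small RNAs but cannot cut. *Ago2* null oocytes (2 libraries) lack functional *Ago2*. *Dicer* WT (3 libraries) and *Dicer* KO (3 libraries, oocyte-specific deletion) oocytes form a separate pair of groups. Every library pools 20 oocytes from 3 or 4 animals, so its value is already an average over females, and p-values measure the spread between such pools.

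DICER cuts long double-stranded RNA into siRNAs. In oocytes, such double strands form where an mRNA pairs with an antisense transcript, for example RNA that runs through a processed pseudogene in reverse, or with the mRNA of a gene on the opposite strand of the same locus. AGO2 loaded with an siRNA cuts RNAs that pair with it, and AGO2 is the only mouse Argonaute with this activity. The oocyte makes a short DICER form that favours long double strands, and oocytes without *Dicer* fail in meiosis.

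To see which of the 10 mRNAs could pair with another annotated RNA, their sequences were compared with all GENCODE transcripts of GRCm38 (the assembly called mm10). A stretch of at least 150 bases at 80% identity or more on the opposite strand was found for 7 of the 10, against 17.9% of the 18555 genes searched. For 4 of the 10 the antisense partner lies at another place in the genome, against 5.56% of genes, and for 3 it overlaps the gene itself, against 13.3%. These limits were chosen after the matches were seen, and the counts are a description. The 3 overlapping pairs could form double strands as well and are described below. The 4 pairs whose RNAs come from different loci are shown by their best-matching 30 bases, each written 5′ to 3′. Every base pairs in these windows, which were picked for that, and capitals mark the start codon of *Cwc22* and the bases that face it.

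Lgalsl mRNA, 3′ UTR, chr11:20826083-20826112, minus strand: actaaaatggatttgtgatgatttgtgatt
Lrrc28 mRNA, 3′ UTR, chr7:67594428-67594457, minus strand: aatcacaaatcatcacaaatccattttagt
Cwc22 mRNA, start of the coding sequence, chr2:77936599-77936628, minus strand: cagcagaaaATGaaaagtagtgtggcacac
Hdx mRNA, 3′ UTR, chrX:111571689-111571718, minus strand: gtgtgccacactacttttCATtttctgctg
Ncoa2 mRNA, coding sequence, chr1:13184272-13184301, minus strand: atgctggtgaagcctttgccagattcagaa
D030018L15Rik lincRNA, chr15:96073786-96073815, minus strand: ttctgaatctggcaaaggcttcaccagcat
Fbxo34 mRNA, 3′ UTR, chr14:47531377-47531406, plus strand: attgctcaggcattttaaactgtttctcag
Vmn2r59 mRNA, 3′ UTR, chr7:42047429-42047458, minus strand: ctgagaaacagtttaaaatgcctgagcaat

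The longest pairing was between *Cwc22* and *Hdx*, a homeobox gene, with 3162 aligned bases at 84.9% identity that span nearly the whole *Cwc22* mRNA. It falls in the *Hdx* 3′ UTR, where a processed *Cwc22* pseudogene, *Gm7340* (chrX:111571699-111574450, plus strand), is annotated in reverse. *Lgalsl* paired with *Lrrc28* over 1351 bases at 90.7% identity, from its 3′ UTR to the coding sequence and 3′ UTR of *Lrrc28*. A processed pseudogene of the member, *Gm32983* (chr7:67593659-67594163, plus strand), lies within the partner gene and opposite to it. As annotated, *Gm32983* matches bases 49 to 564 of *Lgalsl*, whereas the pairing with *Lrrc28* covers bases 798 to 2130. *Ncoa2* paired with a long intergenic non-coding RNA, *D030018L15Rik*, over 910 bases at 83.5%. The *Fbxo34* pairing with *Vmn2r59*, a vomeronasal receptor gene, was short but close to exact, with 186 bases at 98.4%.

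Of the other 6 genes, 3 share sequence with a gene on the opposite strand of their own locus. The exons of *Prc1* and *Rccd1* share 670 bases in their 3′ UTRs, those of *Sp110* and *G530012D18Rik* share 392, and those of *2410002F23Rik* and *Acp4* share 172. Counting ignored strand, so that reads in these shared bases cannot be assigned to one gene of a pair. No such stretch was found for *Optn*, *Ankrd28* or *Mtfr2*. An antisense RNA, *4930551O13Rik*, lies within the *Optn* locus, and a transcribed processed pseudogene, *Gm49309*, lies within that of *Ankrd28* on the opposite strand. Also opposite to a member are *Gm35166* in the *Fbxo34* locus, *6330403N20Rik* in that of *Prc1* and *Gm27881* in that of *Ncoa2*. None of these genes shares such a stretch with the transcript of the member, repeats aside. The 3′ UTR of *Ankrd28* holds a repeat that 325 genes match. Copies in sense were annotated for *Sp110*, *Prc1*, *Lgalsl*, *Cwc22*, *Fbxo34*, *Mtfr2* and *2410002F23Rik*. Those of *Sp110*, *Cwc22*, *Fbxo34* and *2410002F23Rik* are 95% identical or more in part. Those of *Mtfr2*, *Prc1* and *Lgalsl* are less alike but hold exact runs of up to 124, 83 and 76 bases. Reads that align to more than one place were tallied apart and not counted, so that the levels of all these genes are uncertain by the reads they share.

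**Figure D1:**
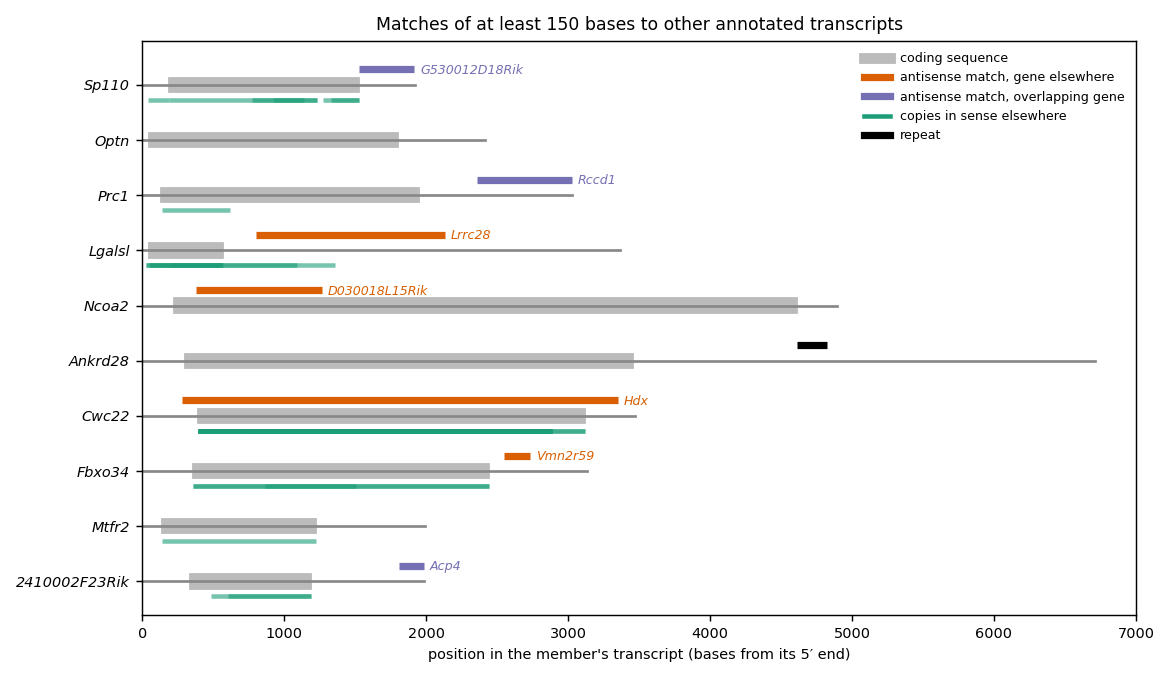
Position along each member's transcript in bases (x axis) of the coding sequence and of matches to other GENCODE transcripts. Orange bars are antisense matches to genes elsewhere (*Lgalsl*, *Ncoa2*, *Cwc22* and *Fbxo34*), violet bars antisense matches to overlapping genes, green bars copies in sense and the black bar a repeat. The match of *Cwc22* to *Hdx* covers 3162 aligned bases and that of *Fbxo34* to *Vmn2r59* covers 186.

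The libraries held 29380403 to 58285057 counts, so that 3 counts, the floor used here, correspond to 0.0515 to 0.102 CPM, the count of a transcript relative to the total of its library. The levels below are CPM scaled by TMM over all 14 libraries, whereas fold changes come from the fit of each comparison on its own libraries. *Ago2* itself was at 24.38, 25.45 and 23.96 CPM in *Ago2* fl/fl, 13.73, 12.96 and 12.37 in *Ago2* ADH, and 7.17 and 5.30 in *Ago2* null, which is the order that the labels give. *Dicer1* was at 750, 745 and 779 CPM in *Dicer* WT and at 1943, 1824 and 1679 in the libraries labelled *Dicer* KO. The deleted exons are not given in the sources used here and the count covers the whole transcript, so that it cannot show the deletion. Every direction given for *Dicer* KO therefore rests on the labels. The 10 oocyte markers summed to 10978 to 17625 CPM in all libraries. The 10 cumulus and granulosa cell markers summed to 40.3 to 45.7 CPM in *Ago2* fl/fl and to 28.8 to 34.2 in the 2 *Ago2* mutants, against 57.1 to 65.7 in *Dicer* WT and 52.8 to 55.5 in *Dicer* KO. Most of each sum came from *Cyp19a1* alone. This gene was at 30.6 to 36.2 CPM in *Ago2* fl/fl and 20.5 to 24.7 in the 2 *Ago2* mutants. In *Dicer* WT it was at 48.9 to 57.7 CPM and in *Dicer* KO at 46.3 to 49.4. Rarer markers differed in both directions between *Ago2* fl/fl and *Ago2* ADH. Mean *Inha* was 0.753 and 1.44 CPM, and mean *Fshr* was 0.869 and 0.259. Alignments tallied as not unique were 33.2% to 34.6% in *Ago2* fl/fl and 57.0% to 58.3% in the 2 *Ago2* mutants, and 25.6% to 31.5% in *Dicer* WT against 44.4% to 49.6% in *Dicer* KO. The part of either difference in the results was not tested. The 3 blood and immune markers found in the files summed to 0.0747 CPM at most, and the 5 theca and stroma markers to 2.90.

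In *Ago2* ADH oocytes, 6 of the 10 genes were higher than in *Ago2* fl/fl (*Sp110*, *Optn*, *Prc1*, *Lgalsl*, *Ankrd28* and *Ncoa2*) and 1 was lower (*Cwc22*) at an FDR of 1% (quasi-likelihood test of edgeR, p-values adjusted after Benjamini-Hochberg). Over all transcripts tested, 40.7% were called, 20.5% higher and 20.1% lower. In *Ago2* null oocytes 5 were higher, the same genes without *Ncoa2*, and *Cwc22* was lower, where 37.2% of all transcripts were called, 18.1% higher and 19.1% lower. In *Dicer* KO oocytes the 6 genes higher were those of *Ago2* ADH, and 1 was lower (*2410002F23Rik*), against 34.5% of all transcripts called, 16.7% higher and 17.8% lower. An increase of at least 2-fold was called for 4 of the 10 genes in *Ago2* ADH (*Sp110*, *Optn*, *Prc1* and *Lgalsl*), against 9.1% of all transcripts, for the same 4 in *Ago2* null, against 8.18%, and for these and *Ankrd28* in *Dicer* KO, against 7.75%. The median log2 fold change of the 10 genes was 0.35 in *Ago2* ADH, 0.29 in *Ago2* null and 0.78 in *Dicer* KO, and that of all transcripts tested was within 0.00685 of 0. Both *Ago2* mutants were compared with the same 3 *Ago2* fl/fl libraries, so these 2 results are not independent. In pools of whole oocytes, more RNA per oocyte and a larger share of oocytes with the RNA cannot be told apart.

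**Figure D2:**
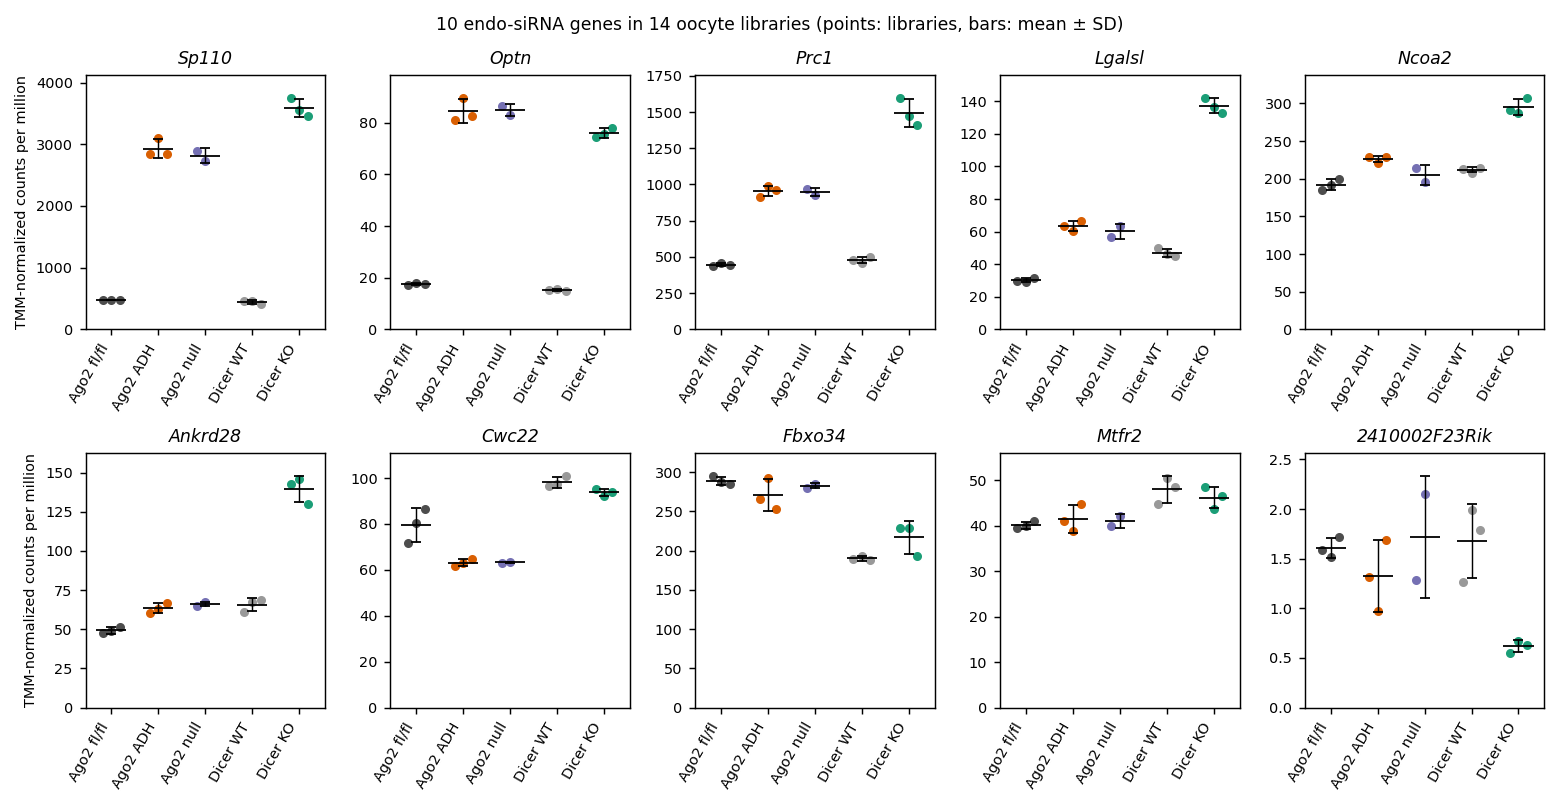
TMM-normalized CPM (y axis, from 0) of each gene in the 14 libraries, by group (x axis). Points are libraries, and bars give the mean and SD. *Sp110* stays between 411 and 481 in the control libraries and is at 2735 or more in every mutant library, whereas *Mtfr2* stays between 38.8 and 50.6 in all.

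*Sp110* (chr1:85576899-85598817, minus strand, 12 exons) encodes a nuclear body protein of the SP100 family. It was at 475, 478 and 481 CPM in *Ago2* fl/fl, at 2836, 3104 and 2850 in *Ago2* ADH, and at 2899 and 2735 in *Ago2* null. In *Dicer* WT it was at 454, 460 and 411 CPM, and in *Dicer* KO at 3755, 3560 and 3466. All mutant libraries were far above all controls, and the log2 fold change was 2.66 ± 0.0454 (SE) in *Ago2* ADH, 2.59 ± 0.0508 in *Ago2* null and 3.02 ± 0.0662 in *Dicer* KO (edgeR, Benjamini-Hochberg adjusted p = 5.43e-19, 5.14e-16 and 4.97e-17). Only 1.39%, 1.84% and 0.856% of the transcripts tested had a larger log2 fold change. Counting ignored strand, so that reads of *G530012D18Rik* in the 392 shared bases may enter the *Sp110* count, which was not tested. The counted *Sp110* transcript alone took 0.0404% to 0.0494% of all transcript counts in the controls and 0.277% to 0.351% in the mutants. In this total, a read held by several transcripts is counted on each.

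*Optn* (chr2:5020642-5064051, minus strand, 15 exons) encodes optineurin, an autophagy receptor. Its levels were 17.2, 18.1 and 17.6 CPM in *Ago2* fl/fl, 81.0, 89.7 and 82.8 in *Ago2* ADH, and 86.5 and 83.1 in *Ago2* null. They were 15.4, 15.8 and 15.0 CPM in *Dicer* WT and 74.3, 75.6 and 78.1 in *Dicer* KO. The increase was thus close to 5-fold in each mutant, with a log2 fold change of 2.31 ± 0.0673, 2.30 ± 0.0734 and 2.30 ± 0.0804 (edgeR, adjusted p = 1.13e-15, 1.48e-13 and 3.49e-14).

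*Prc1* (chr7:80294450-80316259, plus strand, 14 exons) encodes a microtubule cross-linker of the spindle midzone needed for cytokinesis. It was at 437, 457 and 447 CPM in *Ago2* fl/fl, 917, 990 and 960 in *Ago2* ADH, and 968 and 927 in *Ago2* null, about a doubling. In *Dicer* WT it was at 476, 459 and 499 CPM and in *Dicer* KO at 1599, 1471 and 1413. The log2 fold changes were 1.14 ± 0.0449, 1.11 ± 0.0524 and 1.64 ± 0.0635 (edgeR, adjusted p = 1.01e-13, 2.55e-11 and 1.52e-13). Counting ignored strand, and reads in the 670 bases that *Prc1* shares with *Rccd1* cannot be assigned to one of them. *Rccd1*, counted on a transcript without those bases, was at 0.195 to 2.30 CPM in all libraries, and fell by 2.48 on the log2 scale in *Dicer* KO (adjusted p = 7.48e-05).

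*Lgalsl* (chr11:20823576-20831056, minus strand, 5 exons) encodes a galectin-like protein. Its levels were 29.8, 28.9 and 31.4 CPM in *Ago2* fl/fl, 63.2, 60.6 and 66.4 in *Ago2* ADH, and 56.8 and 63.6 in *Ago2* null. *Dicer* WT libraries were higher than *Ago2* fl/fl at 49.8, 46.4 and 44.9 CPM, and *Dicer* KO libraries were at 142, 137 and 133. Against their own controls the mutants again did not overlap, with log2 fold changes of 1.12 ± 0.0683, 1.03 ± 0.0781 and 1.54 ± 0.0686 (edgeR, adjusted p = 8.78e-11, 1.29e-08 and 1.1e-12).

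*Ankrd28* (chr14:31698768-31830651, minus strand, 28 exons), a regulatory subunit of protein phosphatase 6, rose in all 3 mutants. It was at 47.5, 49.0 and 51.7 CPM in *Ago2* fl/fl, 60.5, 63.2 and 66.9 in *Ago2* ADH, and 65.0 and 67.1 in *Ago2* null. In *Dicer* WT it was at 60.9, 67.2 and 68.9 CPM and in *Dicer* KO at 143, 146 and 130. The log2 fold changes were 0.41 ± 0.065, 0.45 ± 0.0709 and 1.08 ± 0.071 (edgeR, adjusted p = 3.31e-05, 5.9e-05 and 3.73e-10).

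*Ncoa2* (chr1:13139105-13374083, minus strand, 23 exons), a coactivator of nuclear receptors, changed little. Its levels were 186, 192 and 199 CPM in *Ago2* fl/fl, 229, 221 and 229 in *Ago2* ADH, and 214 and 196 in *Ago2* null, where one library lay within the range of the control. In *Dicer* WT they were 213, 208 and 214 CPM and in *Dicer* KO 292, 288 and 308. The log2 fold change passed the test in *Ago2* ADH (0.28 ± 0.0494, edgeR adjusted p = 9.56e-05) and in *Dicer* KO (0.48 ± 0.0578, adjusted p = 1.73e-06) but not in *Ago2* null (0.12 ± 0.062, adjusted p = 0.11). Of the transcripts tested, 30.7% in *Ago2* ADH and 22.3% in *Dicer* KO had a larger log2 fold change.

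*Cwc22* (chr2:77881159-77946375, minus strand, 21 exons), a spliceosome protein that brings the exon junction complex to mRNA, went the other way in the *Ago2* mutants. It was at 71.6, 80.5 and 86.5 CPM in *Ago2* fl/fl, 61.9, 63.1 and 64.7 in *Ago2* ADH, and 63.2 and 63.5 in *Ago2* null. *Dicer* WT was at 96.4, 97.2 and 101 CPM and *Dicer* KO at 95.3, 92.1 and 94.1. The log2 fold change was -0.29 ± 0.0686 in *Ago2* ADH (edgeR, adjusted p = 0.00184), -0.30 ± 0.0799 in *Ago2* null (adjusted p = 0.00543) and -0.07 ± 0.0629 in *Dicer* KO (adjusted p = 0.397). The first call was lost without *Ago2* fl/fl replicate 3 (adjusted p = 0.0162), and the second without *Ago2* fl/fl replicate 2 or 3 or either *Ago2* null library (adjusted p = 0.0186 to 0.0381).

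*Fbxo34* (chr14:47450421-47531962, plus strand, 4 exons), an F-box protein of ubiquitin ligases, was abundant in all groups. It was at 295, 287 and 285 CPM in *Ago2* fl/fl, 266, 293 and 253 in *Ago2* ADH, and 280 and 285 in *Ago2* null. *Dicer* WT oocytes had 189, 194 and 188 CPM and *Dicer* KO oocytes 229, 228 and 193. No comparison passed the test, with log2 fold changes of -0.05 ± 0.051, 0.00 ± 0.0536 and 0.19 ± 0.0679 (edgeR, adjusted p = 0.439, 0.988 and 0.0321). Without *Dicer* KO replicate 3, the lowest of its group, *Fbxo34* was called higher in *Dicer* KO (0.26, adjusted p = 0.00184).

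*Mtfr2* (chr10:20347770-20361304, plus strand, 7 exons), a regulator of mitochondrial fission, was at 39.5, 39.8 and 41.0 CPM in *Ago2* fl/fl, 41.0, 38.8 and 44.7 in *Ago2* ADH, and 39.9 and 42.2 in *Ago2* null. In *Dicer* WT it was at 44.8, 50.6 and 48.6 CPM and in *Dicer* KO at 48.4, 43.7 and 46.4. Mutants and controls overlapped in all 3 comparisons, with log2 fold changes of 0.10 ± 0.0718, 0.06 ± 0.0748 and -0.06 ± 0.0804 (edgeR, adjusted p = 0.28, 0.507 and 0.586).

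The uncharacterized gene *2410002F23Rik* (chr7:44246722-44252319, plus strand, 6 exons) was the rarest of the 10, with 17 to 113 counts per library. It was at 1.58, 1.52 and 1.71 CPM in *Ago2* fl/fl, 1.31, 0.969 and 1.69 in *Ago2* ADH, and 1.29 and 2.15 in *Ago2* null, without a called difference (edgeR, adjusted p = 0.488 and 0.743). The *Dicer* WT level was 1.27, 1.99 and 1.79 CPM and that in *Dicer* KO 0.553, 0.675 and 0.628. It thus fell by 1.44 ± 0.365 on the log2 scale in *Dicer* KO (adjusted p = 0.00321), a call that was lost without *Dicer* WT replicate 2 or 3 or *Dicer* KO replicate 1 (adjusted p = 0.0132 to 0.0199).

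**Figure D3:**
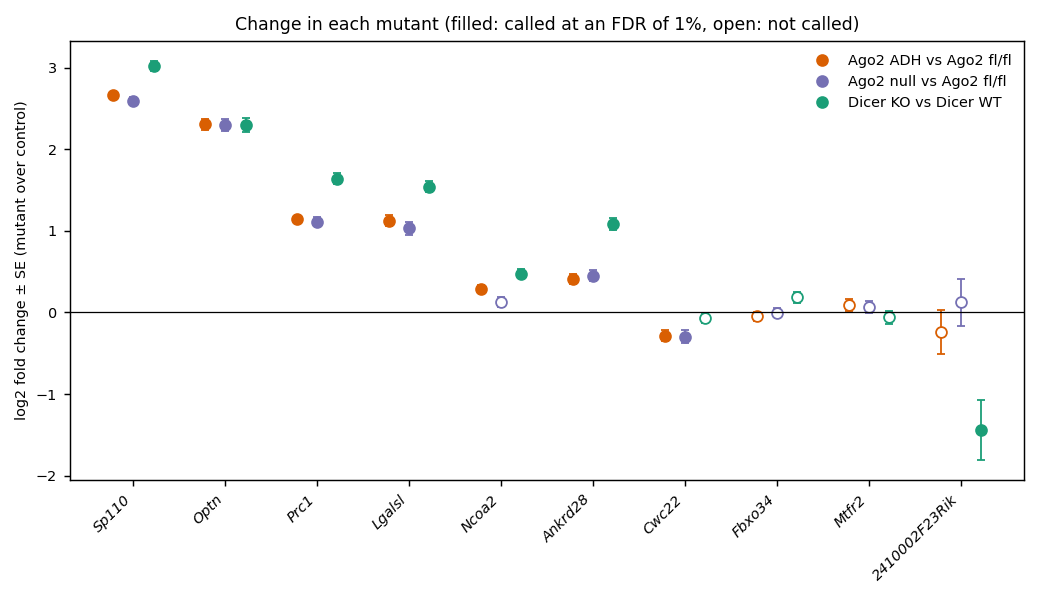
Log2 fold change of each gene in each mutant over its own control (y axis), with the standard error of the fit. Filled points were called at an FDR of 1% and open points were not. *Sp110*, *Optn*, *Prc1*, *Lgalsl* and *Ankrd28* lie above 0 in all 3 mutants, *Ncoa2* is called in 2 of them, and the other 4 genes lie near or below 0 apart from *Fbxo34* at 0.19 in *Dicer* KO.

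To compare levels between genes, CPM were divided by transcript length in kilobases. In *Ago2* fl/fl, *Sp110* was highest at 249 CPM per kb, followed by *Prc1* at 148, *Fbxo34* at 92.3 and *Ncoa2* at 39.3. *Cwc22* at 22.9 and *Mtfr2* at 20.1 came next, then *Lgalsl* at 8.94. *Ankrd28* at 7.36 and *Optn* at 7.31 overlapped between libraries, and *2410002F23Rik* was last at 0.810. The first 4 kept this order in the other 4 groups, although *Fbxo34* at 69.3 and *Ncoa2* at 60.4 CPM per kb overlapped in *Dicer* KO. Below them, *Dicer* WT kept the order of *Ago2* fl/fl and the mutants did not. *Optn* came next in both *Ago2* mutants, at 35.0 and 35.2 CPM per kb, whereas *Lgalsl* came next in *Dicer* KO, at 40.8. *Sp110* ended at 1525, 1466 and 1871 CPM per kb in *Ago2* ADH, *Ago2* null and *Dicer* KO. The transcripts that stand for the 10 genes together took 0.157% to 0.169% of all transcript counts in the control libraries and 0.452% to 0.596% in the mutants.

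To test if cutting by AGO2 and the AGO2 protein itself differ in effect, *Ago2* ADH was compared with *Ago2* null. None of the 10 genes was called by edgeR, and none by DESeq2, where edgeR called 23 of 19306 transcripts (0.119%). Of all transcripts tested, 0.0673% were called higher in *Ago2* ADH, 0.0363% at least 2-fold higher, and 0.0518% lower. At an unadjusted p under 0.05, 1 of the 10 genes passed in both tools, as did 1931 of the 19306 transcripts in edgeR and 9.31% in DESeq2, so that this is no more than the background. It was *Ncoa2* (log2 difference 0.14 ± 0.0646, edgeR adjusted p = 0.49). The differences of the other genes ranged from -0.07 to 0.07 on the log2 scale, with standard errors of 0.0551 to 0.0883, apart from the rare *2410002F23Rik* at -0.38 ± 0.325. With 3 and 2 libraries, even a difference as large as that of *Ncoa2*, at more than its error, went uncalled. Equal levels in the 2 mutants are therefore not shown.

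Whether the genes changed to the same extent in *Ago2* ADH and in *Dicer* KO was tested as the difference between the 2 effects, each against its own control. This difference passed the test for 4 of the 10 genes, each with the larger increase in *Dicer* KO, where 3.55% of all transcripts passed, 2.35% in this direction and 1.2% in the other (692 called, of which 234 with the larger value in *Ago2* ADH, or 346 of 697 when scaled by total count alone). Among these 4 genes it was largest for *Ankrd28* (-0.72 ± 0.0944 on the log2 scale, edgeR adjusted p = 2.18e-05), followed by *Prc1* (-0.55 ± 0.0755, adjusted p = 4.06e-05), *Lgalsl* (-0.47 ± 0.0914, adjusted p = 0.00188) and *Sp110* (-0.41 ± 0.0744, adjusted p = 0.00101). *Optn* did not differ beyond its error (-0.04 ± 0.0973, adjusted p = 0.835). The rare *2410002F23Rik* had a value of the opposite sign that did not pass (1.16 ± 0.433, adjusted p = 0.103).

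The *Ago2* null effect differed from the *Dicer* KO effect for 5 of the 10 genes, again each with the larger increase in *Dicer* KO, where 3.01% of all transcripts passed and 2.03% in this direction (598 called, of which 195 with the larger value in *Ago2* null, or 261 of 538 when scaled by total count alone). These were *Ankrd28* (-0.66 ± 0.101, edgeR adjusted p = 0.000273), *Prc1* (-0.56 ± 0.0826, adjusted p = 0.000185), *Lgalsl* (-0.54 ± 0.102, adjusted p = 0.00215), *Sp110* (-0.46 ± 0.0802, adjusted p = 0.000996) and *Ncoa2* (-0.39 ± 0.0833, adjusted p = 0.00606). Without *Ago2* null replicate 2 the count was 3, with *Sp110* (adjusted p = 0.0107) and *Ncoa2* (0.0629) no longer called. *Lgalsl* was not called without *Ago2* null replicate 1 (0.0214), and *Ncoa2* was also lost without *Ago2* fl/fl replicate 2 or 3, *Dicer* WT replicate 1 or 2, or *Dicer* KO replicate 2 (0.0113 to 0.0254). The *Ago2* and *Dicer* libraries come from separate mouse lines, so that line and gene cannot be told apart in these differences. How complete the loss of AGO2 cutting or of DICER was cannot be read from these counts. The paper gives separate alignment settings by read length without naming the libraries, and an effect of read length was not tested.

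**Figure D4:**
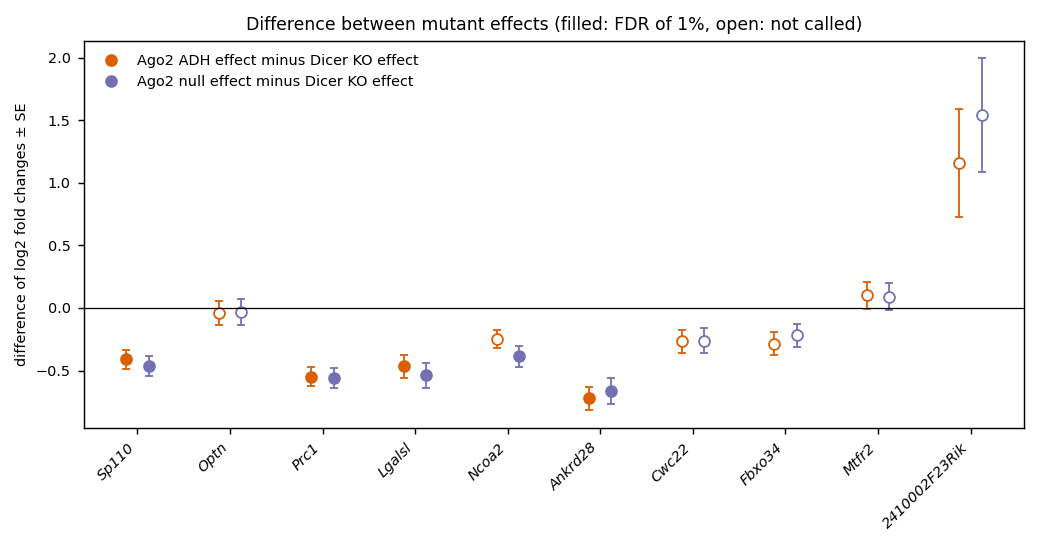
Difference between the log2 fold change in an *Ago2* mutant and that in *Dicer* KO (y axis, with the standard error of the fit) for each gene. Values below 0 mean a larger increase in *Dicer* KO. Filled points passed an FDR of 1%: *Ankrd28* at -0.72 and -0.66, *Prc1*, *Lgalsl* and *Sp110* in both differences and *Ncoa2* in that of *Ago2* null.

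Of the genes that pair with a member in antisense, *Lrrc28*, a leucine-rich repeat protein gene, rose in each mutant, as *Lgalsl* did. The counted *Lrrc28* transcript of 1817 bases holds the match from base 483 to its last base. It was at 198, 193 and 216 CPM in *Ago2* fl/fl, 652, 679 and 675 in *Ago2* ADH, and 677 and 720 in *Ago2* null. In *Dicer* WT it was at 234, 259 and 253 CPM and in *Dicer* KO at 1085, 1033 and 1051. The mutants were all above their controls, with log2 fold changes of 1.77 ± 0.051, 1.82 ± 0.0601 and 2.08 ± 0.0614 (edgeR, adjusted p = 9.67e-16, 2.33e-13 and 3.18e-15). A longer *Lrrc28* transcript of 2923 bases, which lacks the match, rose by 1.40 ± 0.0617, 1.34 ± 0.0707 and 1.65 ± 0.0659 (adjusted p = 6.48e-13, 1.25e-10 and 2.39e-13). The 2 transcripts share exons, and reads there are counted on both. Counting ignored strand, and how far reads of *Lgalsl* or of its pseudogene *Gm32983* contribute was not tested.

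*Hdx*, the partner of *Cwc22*, was rare, at 0.482, 0.675 and 1.05 CPM in *Ago2* fl/fl, 2.02, 1.61 and 1.503 in *Ago2* ADH, and 1.79 and 1.70 in *Ago2* null. *Dicer* WT libraries held it at 1.66, 0.597 and 2.22 CPM and *Dicer* KO libraries at 7.32, 5.55 and 7.68. Its count rose in each mutant, with log2 fold changes of 1.27 ± 0.322, 1.28 ± 0.357 and 2.19 ± 0.316 (edgeR, adjusted p = 0.00274, 0.00694 and 1.43e-05), whereas *Cwc22* itself was lower or not called. The counted *Hdx* transcript holds the match, and counting ignored strand. How far reads of the pseudogene *Gm7340* or of *Cwc22* contribute to the *Hdx* count was not tested. Per length, the mean level of *Hdx* was 0.0771 CPM per kb in *Ago2* fl/fl and 0.718 in *Dicer* KO, far below that of *Cwc22*, which lay between 18.2 and 28.3 in the 5 groups. The counted *Vmn2r59* transcript lacks the match to *Fbxo34* and was at 0 in all *Ago2* mutant libraries and at 0.05715 CPM at most elsewhere. *Acp4*, the partner of *2410002F23Rik*, was counted on a transcript without the match and lay near the floor. Its means were 0.207 CPM in *Ago2* fl/fl, 0.0779 in *Ago2* ADH, 0.102 in *Ago2* null, 0.263 in *Dicer* WT and 0.109 in *Dicer* KO. In *Ago2* null its log2 fold change did not pass (-0.98 ± 0.767, edgeR adjusted p = 0.309). *D030018L15Rik* and *G530012D18Rik* were not matched to a counted transcript and were not analysed here.

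**Figure D5:**
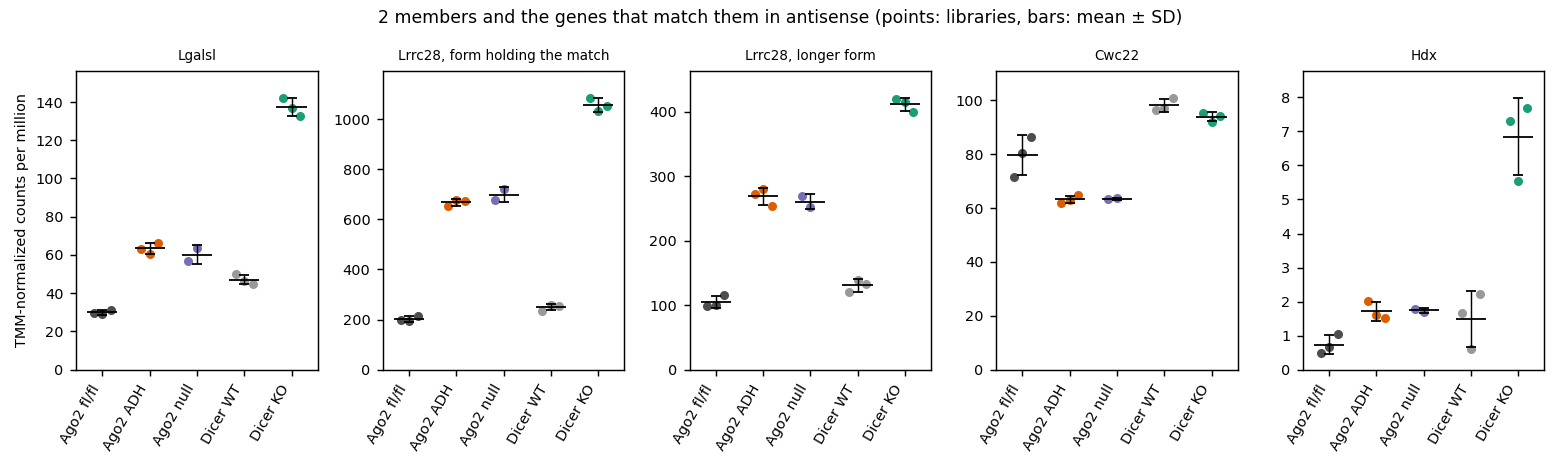
TMM-normalized CPM (y axis, from 0) of *Lgalsl*, both *Lrrc28* transcripts, *Cwc22* and *Hdx* in the 14 libraries, by group (x axis). Points are libraries, and bars give the mean and SD. Counts of *Lrrc28* and *Hdx*, taken without regard to strand, are higher in each mutant than in its control, *Lgalsl* follows them, and *Cwc22* does not.

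Among the sense copies, *C130026I21Rik*, which shares 221 bases of coding sequence at 96.4% identity with *Sp110*, was the only one matched to a counted transcript. It rose from 11.9 ± 1.05 CPM (SD, n = 3) in *Ago2* fl/fl to 159 ± 2.05 (n = 3) in *Ago2* ADH and 157 ± 0.770 (n = 2) in *Ago2* null, and from 17.7, 12.1 and 12.3 in the *Dicer* WT libraries to 605 ± 10.9 (n = 3) in *Dicer* KO. The log2 fold changes were 3.79 ± 0.0703, 3.75 ± 0.0789 and 5.43 ± 0.112 (edgeR, adjusted p = 1.46e-18, 9e-16 and 2.83e-17). How far reads of *Sp110* contribute to these counts was not tested.

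Of 5 further genes described as sources of endo-siRNAs in oocytes (*Rangap1*, *Ppp4r1*, *Pdzd11*, *Kif4* and *Hdac1*), all 5 rose in each of the 3 mutants, where 20.5%, 18.1% and 16.7% of all transcripts were called higher in *Ago2* ADH, *Ago2* null and *Dicer* KO. In *Ago2* ADH the change was largest for *Rangap1*, the GTPase activator of the RAN nuclear transport cycle (log2 fold change 3.42 ± 0.0764, edgeR adjusted p = 1.87e-17), and smallest for *Pdzd11*, a PDZ domain protein (0.51 ± 0.0563, adjusted p = 3.85e-07). Of 13 genes of the siRNA machinery, 3 rose and 2 fell in each mutant, with *Ago2* itself among those that fell, which is close to the shares of all transcripts called higher (16.7% to 20.5%) and lower (17.8% to 20.1%). *Tsnax*, a subunit of the C3PO nuclease that removes cut passenger strands, rose most in *Ago2* ADH (1.71 ± 0.0658, adjusted p = 7.14e-14), and *Ago2* fell most (-0.87 ± 0.0879, adjusted p = 1.27e-07). *Dicer1* rose by 0.67 ± 0.0434 in *Ago2* ADH (adjusted p = 2.11e-10). Of the relatives and partners of the 10 genes, 3 of 15 tested rose and 3 fell in *Ago2* ADH, close to the 20.5% and 20.1% of all transcripts, and *Kif4*, 1 of those that rose, is also among the 5 genes above. *Sp140*, of the same family as *Sp110*, rose most (1.98 ± 0.0901, adjusted p = 1.05e-12), and *Sp100* had the lowest value but did not pass (-0.78 ± 0.28, adjusted p = 0.0247), whereas it fell by 1.23 in *Ago2* null and by 1.49 in *Dicer* KO on the log2 scale (adjusted p = 0.00318 and 0.00207).

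For each of the 10 genes, the transcript of another gene with the most similar log2 CPM over the 14 libraries was looked up among 14133 transcripts with a mean of at least 100 counts. For *Optn* it was *Rangap1* (Pearson r = 0.999) and for *Ankrd28* it was *Hdac1* (r = 0.980), both of the 5 further endo-siRNA genes. For *Sp110* it was *Pphln1* (r = 0.999), for *Prc1* *Tcea1* (0.996), for *Lgalsl* *Phf6* (0.989) and for *Ncoa2* *Deptor* (0.971). For the genes that did not rise, it was *Efnb2* for *Cwc22* (0.983), *Hras* for *Fbxo34* (0.991), *Ccpg1* for *Mtfr2* (0.900) and *Nsun2* for *2410002F23Rik* (0.916). These are the highest of many correlations, and the points share libraries and groups. Both mouse lines enter, so that differences between the lines count as well as changes in the mutants. Mean *Fbxo34*, for example, was 289 CPM in *Ago2* fl/fl and 190 in *Dicer* WT.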

How the data were processed

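The authors aligned paired-end reads of amplified cDNA to mm10 with TopHat, allowing up to 100 alignments, and counted them without regard to strand with htseq-count on RefSeq transcripts (the submitters' processing notes list TopHat2 2.0.7, HTSeq 0.6.1 and DESeq 1.10.0). The deposited values are raw counts per transcript. A read is counted on every transcript that holds it, so that transcripts of a gene are not independent, and reads aligned to several places are tallied apart. Of the *Ago2* null group, 2 libraries were analysed here.

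The counts were tested with edgeR 4.0.16 in R 4.3.3 (quasi-likelihood test, TMM, filterByExpr with a minimum count of 10 and a minimum total of 15, Benjamini-Hochberg adjustment over all transcripts, FDR of 1%), each comparison on its own libraries. The difference of effects was an interaction in a fit of both designs. The script was tested on simulated data. Alternatives were DESeq2 1.42.0, other scalings and filters, an FDR of 5%, a replicate block and leaving out each library. RefSeq identifiers were matched to symbols for 26081 transcripts by RefSeq and 113 by GENCODE, and 301 had none. Transcripts were compared with BLAST 2.17.0. All 10 genes are named, and of each further list *Ago2*, *Dicer1* and the genes with the largest positive and negative log2 fold change in *Ago2* ADH, while antisense partners, copies and the smallest of the 5 endo-siRNA genes were named after their values were seen. The nearest pattern used log2(CPM + 1). The genes and lists were chosen with earlier results of these data known. The depth of 29380403 to 58285057 counts gives a floor of 0.0515 to 0.102 CPM, which covers counting error only.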

Additional observations from a re-analysis of the deposited data

Results flagged for a closer look

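The effect of an *Ago2* mutant and that of *Dicer* KO differed by the interaction test for 9 of the values given above. On the log2 scale, the *Ago2* ADH effect minus the *Dicer* KO effect was -0.41 for *Sp110*, -0.55 for *Prc1*, -0.47 for *Lgalsl* (*1110067D22Rik*) and -0.72 for *Ankrd28*. For *Ago2* null minus *Dicer* KO it was -0.46 for *Sp110*, -0.56 for *Prc1*, -0.54 for *Lgalsl*, -0.39 for *Ncoa2* and -0.66 for *Ankrd28*. The *Ago2* mutants share their controls, so these are not 9 independent results.

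Alignments tallied as not unique enter no comparison. Their share was at least 57.32% in *Ago2* ADH and at least 57.02% in *Ago2* null, where the highest *Ago2* fl/fl library was at 34.61%. It was at least 44.41% in *Dicer* KO, where the highest *Dicer* WT library was at 31.54%.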

How the results depend on the processing

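No called fold change or difference of the 10 genes changed direction under any alternative run, whereas several that were not called and lay near 0 (such as *Fbxo34* in *Ago2* null) crossed it. Same-numbered deviations correlated at -0.16 to 0.0702, which gives no sign of pairing by replicate number. With so few libraries per group, such values cannot decide if same-numbered libraries were collected together. With the replicate block, 2 genes in place of 5 differed between the *Ago2* null and the *Dicer* KO effect (*Sp110*, adjusted p = 0.0159, *Lgalsl*, 0.0254, and *Ncoa2*, 0.0697, were lost), and *Cwc22* was no longer called lower in *Ago2* null (0.0553). Leaving out each library gave 6 to 7 genes called in *Ago2* ADH, 5 to 6 in *Ago2* null, 6 to 8 in *Dicer* KO, 0 in *Ago2* ADH against *Ago2* null, 4 to 5 for the difference of *Ago2* ADH and *Dicer* KO, and 3 to 5 for that of *Ago2* null and *Dicer* KO. In edgeR with RLE factors or total count alone in place of TMM, the last was 4, without *Ncoa2* (adjusted p = 0.0101 and 0.0264), and by DESeq2 it was 5. At an FDR of 5%, 8 genes were called in *Dicer* KO, with *Fbxo34* gained, 6 for the difference of *Ago2* ADH and *Dicer* KO, with *Ncoa2* and *Fbxo34* gained, and 6 for that of *Ago2* null and *Dicer* KO, where *2410002F23Rik* was gained in the opposite direction to the others (1.54, adjusted p = 0.0417). An antisense match of at least 300 bases, a length chosen after seeing the data, was found for 5 of the 10 genes against 10.5% of all, and of at least 500 bases for 4 against 5.73%. For *2410002F23Rik*, low counts limit what could be seen.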
